A study of Homo sapiens with 4 samples.

Results

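The genes described here are inflammatory cytokines and chemokines that renal tubular cells can secrete, together with the feedback inhibitor of the pathway that drives many of them. They are *CXCL1*, *CXCL2*, *CXCL3*, *CXCL8*, *CCL2*, *IL6*, *IL11*, *LIF*, *IL1B* and *NFKBIA*. The genes were chosen by name, with earlier results of these data known. All 10 were found among the 55859 genes shared by the expression tables and the GRCh37 annotation, 19658 of them protein-coding. The cells were HK2, an immortalized human line from renal proximal tubule, treated with 50 μM FG-4592 (roxadustat), an inhibitor of the prolyl hydroxylases, enzymes whose activity leads HIFα to the proteasome. Treatment before RNA-seq lasted 6 h, and the methods of the study give the same condition for ChIP-seq. There were 2 RNA-seq libraries and 2 HIF1α ChIP-seq peak lists, all of treated cells, and whether the replicates were separate cultures is not stated. Untreated cells were not analysed here, so every value below is a level under FG-4592 and no change was computed.

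CXC chemokines such as CXCL8 attract neutrophils, and CCL2 attracts monocytes. IL6, IL11 and LIF signal through receptors that share the chain gp130 and activate JAK kinases and STAT3, and IL1B is made as an inactive precursor that caspase-1 cleaves. NF-κB dimers bind κB sites in the promoters of many of these genes, and IκBα, the product of *NFKBIA*, holds the dimers in the cytoplasm until the IKK complex marks it for destruction. Injured tubules are a known source of several of these signals, and HIF and NF-κB are known to share upstream and target genes.

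Levels are given in FPKM, in which fragments are divided by the length of the transcript and the size of the library, summed over the transcripts of a gene. Of the 10 genes, 7 had a mean FPKM of 1 or more, against 59.7% of protein-coding genes. The median of the means was 24.5 over the 10 genes. Of them 6 reached 10, as did 6160 of the 19658 protein-coding genes. The genes above 1 ran in the order *CXCL8*, *IL11*, *LIF*, *IL6*, *NFKBIA*, *CXCL2* and *CXCL3*. *IL6* and *NFKBIA* did not differ beyond the spread between libraries, while each of the other neighbours in that order was separated in both libraries. With the largest transcript of each gene in place of the sum, *IL11* and *LIF* changed places in both libraries. The genes below 1 were *CCL2*, *IL1B* and *CXCL1*, and the last pair could not be ordered. In bulk RNA, fewer cells expressing a gene and less RNA per cell cannot be told apart.

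**Figure D1:**
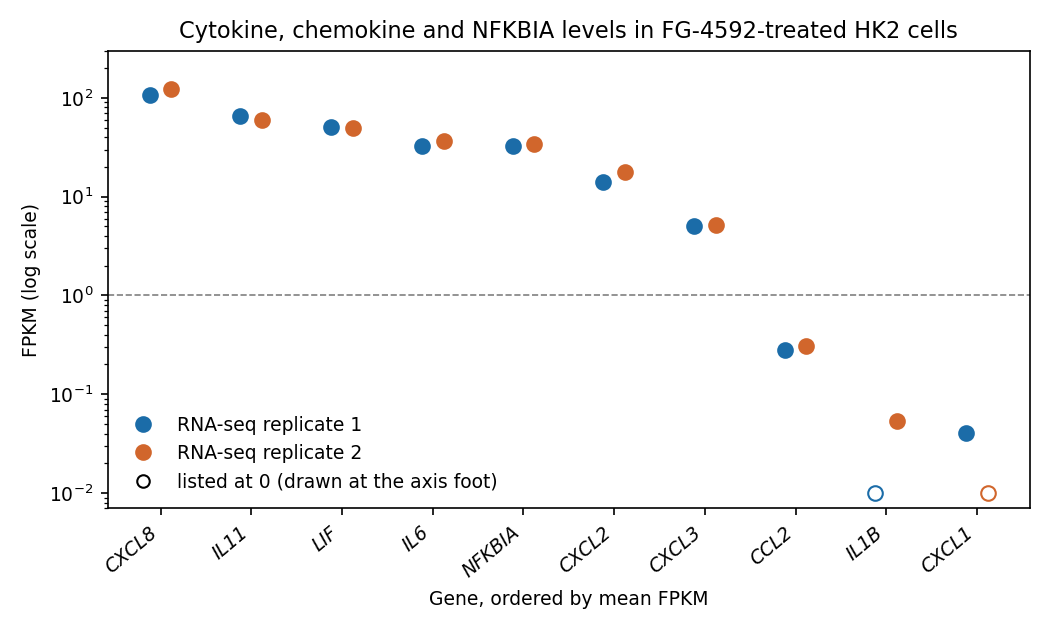
FPKM (log axis) of each gene in RNA-seq replicates 1 and 2, ordered by mean. Filled points are the 2 libraries, open points are values listed at 0, and the dashed line marks an FPKM of 1, with 7 genes above it in both libraries.

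The CXC chemokines spanned the whole range. *CXCL8* (ENSG00000169429, chr4:74606236-74609433 on GRCh37, plus strand), the neutrophil attractant IL-8, stood at an FPKM of 107 in RNA-seq replicate 1 and 123 in replicate 2 (115 ± 11.2, SD, n = 2). This was the highest level of the 10 genes in each library and rank 412 among protein-coding genes. *CXCL2* (ENSG00000081041, chr4:74962757-74964913, minus strand) had 14.0 and 17.8 (15.9 ± 2.68). *CXCL3* (ENSG00000163734, chr4:74902306-74904524, minus strand) had 5.04 and 5.18 (5.11 ± 0.0947). Both encode ligands of the neutrophil receptor CXCR2, and *CXCL2* was above *CXCL3* in both libraries, by 2.79 and 3.45 times. *CXCL1* (ENSG00000163739, chr4:74735110-74737025, plus strand), the closest relative of these genes, had 0.0402 in replicate 1 and was listed at 0 in replicate 2. The *CXCL1* value rested on 128 bases of coverage, all assigned to a transcript without a defined coding sequence, and its canonical transcript was listed at 0 in both libraries. *CXCL1*, *CXCL2* and *CXCL3* are closely similar in sequence, so the authors' estimate could divide reads among them, and their separate levels are uncertain to that extent.

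The promoters of the CXC genes are shown because those of *CXCL1*, *CXCL2* and *CXCL3* are much alike while the estimated levels are not. The sequences are the 250 bases before each RefSeq start site on GRCh38.p14, written in the direction of transcription: chr4:73869143-73869392 (plus strand) for *CXCL1*, chr4:74099196-74099445 (minus) for *CXCL2*, chr4:74038690-74038939 (minus) for *CXCL3* and chr4:73740319-73740568 (plus) for *CXCL8*. Capitals mark every match to the motifs searched, which are named after the sequences.
CXCL1: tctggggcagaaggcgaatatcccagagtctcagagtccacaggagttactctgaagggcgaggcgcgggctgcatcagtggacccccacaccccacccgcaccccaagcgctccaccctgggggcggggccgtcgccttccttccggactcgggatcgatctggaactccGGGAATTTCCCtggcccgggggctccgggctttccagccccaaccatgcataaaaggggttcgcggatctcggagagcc
CXCL2: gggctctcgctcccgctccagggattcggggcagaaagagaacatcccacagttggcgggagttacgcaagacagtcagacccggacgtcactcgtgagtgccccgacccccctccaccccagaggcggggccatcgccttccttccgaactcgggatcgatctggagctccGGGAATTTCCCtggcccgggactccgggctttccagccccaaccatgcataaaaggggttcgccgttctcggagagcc
CXCL3: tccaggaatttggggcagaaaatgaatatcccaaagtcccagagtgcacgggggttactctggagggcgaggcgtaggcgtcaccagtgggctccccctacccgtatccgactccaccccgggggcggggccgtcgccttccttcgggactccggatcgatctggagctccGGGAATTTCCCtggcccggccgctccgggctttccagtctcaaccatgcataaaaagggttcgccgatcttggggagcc
CXCL8: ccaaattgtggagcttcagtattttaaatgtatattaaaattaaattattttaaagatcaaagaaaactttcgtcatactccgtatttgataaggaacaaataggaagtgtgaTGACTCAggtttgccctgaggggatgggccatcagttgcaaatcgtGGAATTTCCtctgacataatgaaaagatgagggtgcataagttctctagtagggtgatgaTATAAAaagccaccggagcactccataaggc
The capitals in *CXCL1*, *CXCL2* and *CXCL3* are the κB decamer, found on both strands 1 base apart, and within it the κB palindrome GGAANTTCC. It begins 79 bases before the start site in *CXCL1* and *CXCL3* and 78 in *CXCL2*. In *CXCL8* the capitals are, in order, an AP-1 motif (TGANTCA) 137 bases before the start site, the κB palindrome at 91 and a TATA box (TATAAA) at 31. Over the whole window, which also holds 50 bases after the start site, *CXCL1* and *CXCL3* were identical at 82.5% of aligned positions, *CXCL1* and *CXCL2* at 71.9%, and *CXCL2* and *CXCL3* at 73.8%. *CXCL8* was identical to the other genes at 45.2% to 47.9% of positions. The promoter most like that of *CXCL3* among these belonged to *CXCL1*, whose RNA was estimated at no more than a trace. That estimate could be affected by the division of reads among these genes.

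Of 12 other CXC chemokines, 2 had a mean FPKM of at least 1, against 59.7% of protein-coding genes. *CXCL5*, which lies between *CXCL1* and *CXCL3* in the cluster on chromosome 4 and encodes another CXCR2 ligand, had 26.2 and 34.3, above *CXCL2* in both libraries. *CXCL16*, a transmembrane chemokine, had 5.49 and 5.55, and *CXCL12* only 0.0906 and 0.0483. *CXCL6*, *PPBP* and *PF4* of the same cluster were listed at 0 in both libraries, as were *CXCL9*, *CXCL10*, *CXCL13*, *CXCL14* and *CXCL17*. Of the cluster genes measured here, *CXCL8*, *CXCL5*, *CXCL2* and *CXCL3* had a mean FPKM above 1.

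*CCL2* (ENSG00000108691, chr17:32582293-32584227, plus strand), which encodes the monocyte attractant MCP-1, stood at 0.278 FPKM in the first library and 0.305 in the second (0.292 ± 0.0187, SD, n = 2). It was low in both libraries, at 1197 and 1195 bases of coverage, with coverage on each of its 3 exons. *CXCL8* exceeded it 384 and 402 times. Among 18 other chemokines, 3 reached a mean of 1, against 59.7% of protein-coding genes. *CCL20*, the ligand of CCR6, had 19.0 and 24.4, *CCL28* 8.78 and 13.1, and *CX3CL1* 4.04 and 4.13. The neighbours of *CCL2* in the CC cluster, *CCL7*, *CCL8*, *CCL11* and *CCL13*, were at 0 in both libraries, as were *CCL3*, *CCL4*, *CCL17*, *CCL19*, *CCL22*, *CCL24* and *CCL25*.

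The IL-6 family followed *CXCL8*. *IL11* (ENSG00000095752, chr19:55875750-55881831, minus strand), a cytokine known from fibrosis and epithelial injury, had an FPKM of 65.6 and 60.1 (62.8 ± 3.91, SD, n = 2). *LIF* (ENSG00000128342, chr22:30636442-30642748, minus strand) had 50.9 and 49.9 (50.4 ± 0.697). *IL6* (ENSG00000136244, chr7:22765503-22771621, plus strand), the founding member of the family, had 32.5 and 36.9 (34.7 ± 3.12). *IL11* was above *LIF* in both libraries, by 1.29 and 1.20 times, and *LIF* above *IL6* by 1.56 and 1.35 times. The order of the ligands by summed FPKM was the same in each library. By the largest transcript alone it turned for *IL11* and *LIF*, with *LIF* at 50.4 and 48.1 and *IL11* at 48.1 and 43.4. Of the 5 other ligands of the family, *CLCF1* had 10.0 and 8.61, *CNTF* 0.278 and 0.315, and *OSM* 0.0586 in replicate 1 and 0 in replicate 2. *CTF1* and *IL27* were at 0 in both. *OSM* lies next to *LIF* on chromosome 22, so neighbouring genes of the family differed widely in level.

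The *IL11* promoter is shown as that of the cytokine of the family with the highest summed FPKM, with no κB match in the window (chr19:55370464-55370713 on GRCh38.p14, minus strand). Capitals mark a hypoxia-responsive element core (ACGTG or GCGTG on either strand) 152 bases before the start site and an AP-1 motif at 96.
IL11: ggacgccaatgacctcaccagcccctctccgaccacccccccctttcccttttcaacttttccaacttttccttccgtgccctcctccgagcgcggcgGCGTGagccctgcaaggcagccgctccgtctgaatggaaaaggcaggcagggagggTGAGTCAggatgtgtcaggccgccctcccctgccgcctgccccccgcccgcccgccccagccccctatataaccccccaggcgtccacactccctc
*IL11* alone among the 8 genes with an entry in the RefSeq promoter table held a hypoxia-responsive element core, a motif that 48.4% of all 35114 promoters of the table hold. *CCL2* and *LIF* had no entry.

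*IL1B* (ENSG00000125538, chr2:113587328-113594393, minus strand) was listed at 0 in replicate 1 and had an FPKM of 0.0535 in replicate 2. That value rested on 454 bases of coverage, on exons 2 to 5 of its canonical transcript. The depth behind such values is small: among genes with up to 450 bases of coverage, the most common value was 300 bases in both libraries (605 of 5130 genes in replicate 1 and 555 of 5131 in replicate 2). *IL1B* and *CXCL1* were thus within a few such units of 0, and a level of 0 is not distinguishable from a low one at this depth. Of 9 other IL-1 family ligands, *IL18*, another cytokine matured by caspase-1, had 6.33 and 9.37 and *IL1A* 0.0628 and 0.0538. The other 7, *IL1RN*, *IL33*, *IL36A*, *IL36B*, *IL36G*, *IL36RN* and *IL37*, were at 0 in both libraries. Among 8 genes of the inflammasome and of IL-1 processing, 3 reached a mean of 1, against 59.7% of protein-coding genes. *GSDMD*, the pore-forming gasdermin D, had 10.9 and 12.0, *PYCARD* 7.52 and 7.24, and *NLRP1* 4.64 and 4.05. *CASP1*, the protease itself, was at 0 in both libraries.

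*NFKBIA* (ENSG00000100906, chr14:35870285-35873955, minus strand) stood at 32.4 FPKM in the first library and 33.7 in the second (33.1 ± 0.955, SD, n = 2). The libraries lay close together, and the level was below that of *CXCL8* by 3.30 and 3.63 times. The gene has 10 annotated transcripts, of which ENST00000553342 was listed at 0 in both libraries and ENST00000554001 in replicate 2. The largest, ENST00000557389, took 45.9% and 42.3% of the FPKM of the gene, and ENST00000557459, annotated as a retained intron, 21.2% and 20.4%. The canonical transcript, ENST00000216797, took 11.4% and 6.39%. Short reads divide poorly among transcripts that share exons, so these shares are less certain than the sum. The *NFKBIA* promoter is shown for its κB match (chr14:35404750-35404999 on GRCh38.p14, minus strand), in capitals 81 bases before the start site with the decamer on the reverse strand. The second capitals are TATAAA read on the reverse strand.
NFKBIA: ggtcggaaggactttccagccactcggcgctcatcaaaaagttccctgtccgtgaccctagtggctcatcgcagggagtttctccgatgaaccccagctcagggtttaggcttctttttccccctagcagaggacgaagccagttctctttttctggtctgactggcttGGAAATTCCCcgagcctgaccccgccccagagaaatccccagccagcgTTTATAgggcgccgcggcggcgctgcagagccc
Across the 8 promoters, 5 held the κB decamer (*CXCL1*, *CXCL2*, *CXCL3*, *IL6* and *NFKBIA*), against 11.3% of all promoters in the table. The κB palindrome was in 5 (*CXCL1*, *CXCL2*, *CXCL3*, *CXCL8* and *NFKBIA*), against 0.965%, and 6 held either motif, against 11.8%. *CXCL1*, *CXCL2* and *CXCL3* hold the same match in promoters that are much alike, so they do not count separately. κB sites were already known in the promoters of many of these genes, so the counts describe them and are no test. AP-1 was in *CXCL8* and *IL11* (7.71% of all) and TATAAA in *CXCL8* and *NFKBIA* (11.5%). In *IL6* the decamer began 73 bases before the start site, and *IL1B* held none of the motifs in this window. These are matches of letters and say nothing of occupancy.

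The transcripts of the other genes differed in how they shared the estimate. *CXCL8* came almost wholly from its canonical transcript, with 94.8% and 94.7%, and *LIF* likewise with 99.1% and 96.5%. In *IL11* the canonical transcript took 20.5% and 20.1%, and a shorter coding transcript, ENST00000585513, 73.3% and 72.2%. In *IL6* the canonical transcript took 45.1% and 50.8%. By the largest transcript alone, the means were 49.3 for *LIF*, 45.7 for *IL11*, 16.7 for *IL6*, 14.6 for *NFKBIA* and 12.3 for *CXCL2*. The order of *IL11* and *LIF* thus rested on the sum over transcripts, and *NFKBIA* and *CXCL2* stood closer together than by the sum.

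Coverage along the exons came from the same transcript estimates as FPKM, so it is not independent of them. In *CXCL8*, exon 2 had a mean coverage of 1171 and 1301 per base and the last exon 454 and 491. In *IL6* exon 1 had 12.6 and 9.81, and exon 3 had 347 and 325. Exon 2 of *IL6* differed between the libraries, at 118 and 270. Whether the division of reads among its transcripts affected this was not tested. Coverage of the last exon divided by that of the inner exons had a median of 0.429 and 0.394 over the 7 genes above an FPKM of 1. Over 10407 protein-coding genes above 1 with at least 3 exons, the median was 0.506 and 0.516, so low coverage of the last exon was common in these libraries. *NFKBIA* was highest among the 7, with 0.908 and 1.08.

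**Figure D2:**
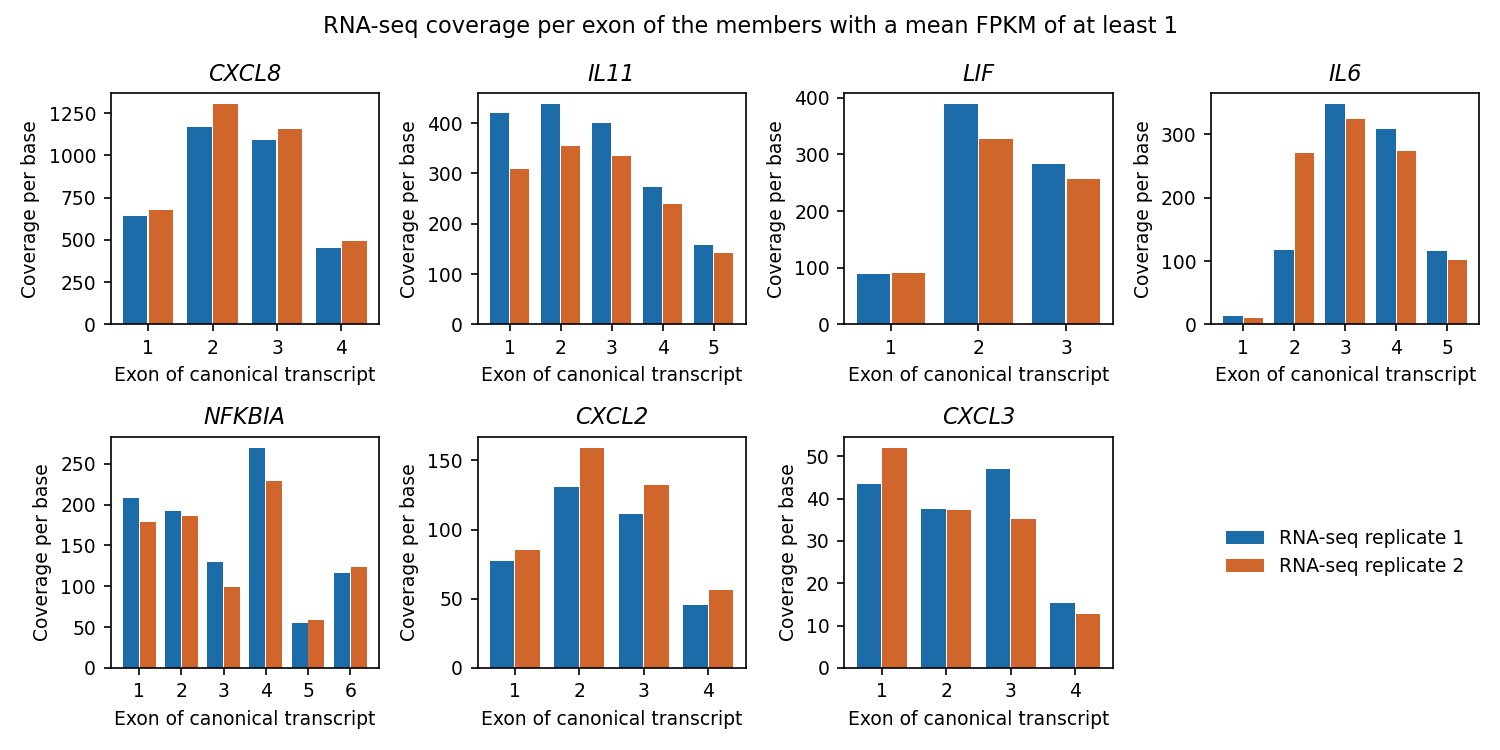
Mean RNA-seq coverage per base (linear axes from 0) of each exon of the canonical transcript, summed over the transcripts of the gene, for the 7 genes whose mean FPKM was 1 or more. Bars are replicates 1 and 2, and in *CXCL8* the last exon stands at 454 and 491 against 1171 and 1301 for exon 2.

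The libraries differed little at these genes. On the log2(FPKM + 1) scale the ratio of replicate 2 to replicate 1 was 0.32 for *CXCL2*, 0.20 for *CXCL8* and 0.18 for *IL6*. It was -0.12 for *IL11* and within 0.06 of 0 for *LIF*, *CXCL3* and *NFKBIA*. The median absolute value was 0.12 over the 7 genes and also 0.12 over the 11726 protein-coding genes whose mean FPKM was 1 or more. Of those genes, 13.1% differed more between libraries than *CXCL2* did.

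Receptors of the same ligands were also measured. Of 12 receptor genes, 6 had a mean FPKM of at least 1, a share near the 59.7% of protein-coding genes. The other 6 were listed at 0 in both libraries, where 22.2% of protein-coding genes were listed at 0 in each library. *IL6ST*, which encodes the shared chain gp130, had 10.3 and 10.8, *IL6R* 5.83 and 6.66, and *IL1RAP* 7.10 and 4.88. *LIFR* had 2.82 and 3.54, *IL1R1* 3.15 and 3.71, and *IL11RA* 1.52 and 1.78. The chemokine receptors *CXCR1*, *CXCR2* and *CCR2*, the scavenging receptors *ACKR1* and *ACKR2*, and the decoy *IL1R2* were the genes at 0. Transcripts for receptors of IL6, IL11 and LIF were thus present beside their ligands, those for the IL-1 receptor beside no more than traces of *IL1A* and *IL1B*, and those for the receptors of CXCL8 and CCL2 were not detected.

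Most of the signalling genes downstream reached a mean FPKM of 1, a level that 59.7% of protein-coding genes reached. The lists were chosen with earlier results of these data known, so these counts are no test. All 5 NF-κB subunits reached a mean of 1, with *NFKB2* at 29.6 and 26.6, *RELA* at 24.9 and 15.5, and *NFKB1* at 16.0 and 17.8. *REL* only just did, with a mean of 1.03, and was below 1 in replicate 2, at 0.773. Of the 6 IκB proteins all reached 1, and *NFKBIZ*, a nuclear member known as a co-activator of *IL6*, stood above *NFKBIA* with 86.9 and 109. *NFKBIE* had 9.67 and 7.39. All 12 genes of the IKK complex and its upstream kinases and adaptors reached 1, led by *IRAK1* at 104 and 89.4, *TAB2* at 21.8 and 21.1 and *TRAF2* at 17.7 and 16.6. So did the 4 feedback genes, with *TNIP1* at 45.2 and 41.6, *OTULIN* at 9.57 and 10.9, *CYLD* at 9.25 and 10.7 and *TNFAIP3*, which encodes A20, at 8.29 and 9.36. Of 10 other NF-κB targets 5 reached 1, namely *PLAU* (106 and 101), *ICAM1* (68.5 and 69.9), *SOD2* (39.9 and 37.1), *C3* (22.2 and 23.1) and *TNFAIP2* (22.0 and 18.1). The other 5 had means below 1, namely *VCAM1* (0.802 and 1.02), *TRAF1* (0.971 and 0.810), *BIRC3* (0.704 and 1.07), *LCN2* (0.555 and 0.365) and *PTGS2* (0.169 and 0.0963).

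All 11 JAK-STAT and SOCS genes reached a mean of 1, where 59.7% of protein-coding genes did. *JAK1*, a kinase bound to gp130, had 90.0 and 89.4 and *TYK2* 24.1 and 26.6. *STAT3*, the main transducer of the IL-6 family, had 24.3 and 24.8, and its feedback inhibitor *SOCS3* 20.8 and 17.6. The 8 genes listed for control of cytokine mRNA decay all reached 1, with *KHSRP* at 127 and 130, *HNRNPD* at 107 and 114 and *ZFP36L1* at 100 and 104. *ZFP36*, which encodes tristetraprolin, differed between the libraries, at 3.25 and 7.57. Of the AP-1 and C/EBP factors all 10 reached 1, with *JUN* at 117 and 114, *FOSL2* at 75.0 and 73.1 and *JUND* at 62.0 and 56.8. Of 14 other cytokines 8 reached 1, led by *MIF* at 683 and 649, *IL15* at 9.88 and 11.9 and *TNFSF10* at 9.48 and 9.65. *TNF*, an upstream activator of NF-κB, had 0.336 and 0.360, and *TSLP* was at 0 in both.

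**Figure D3:**
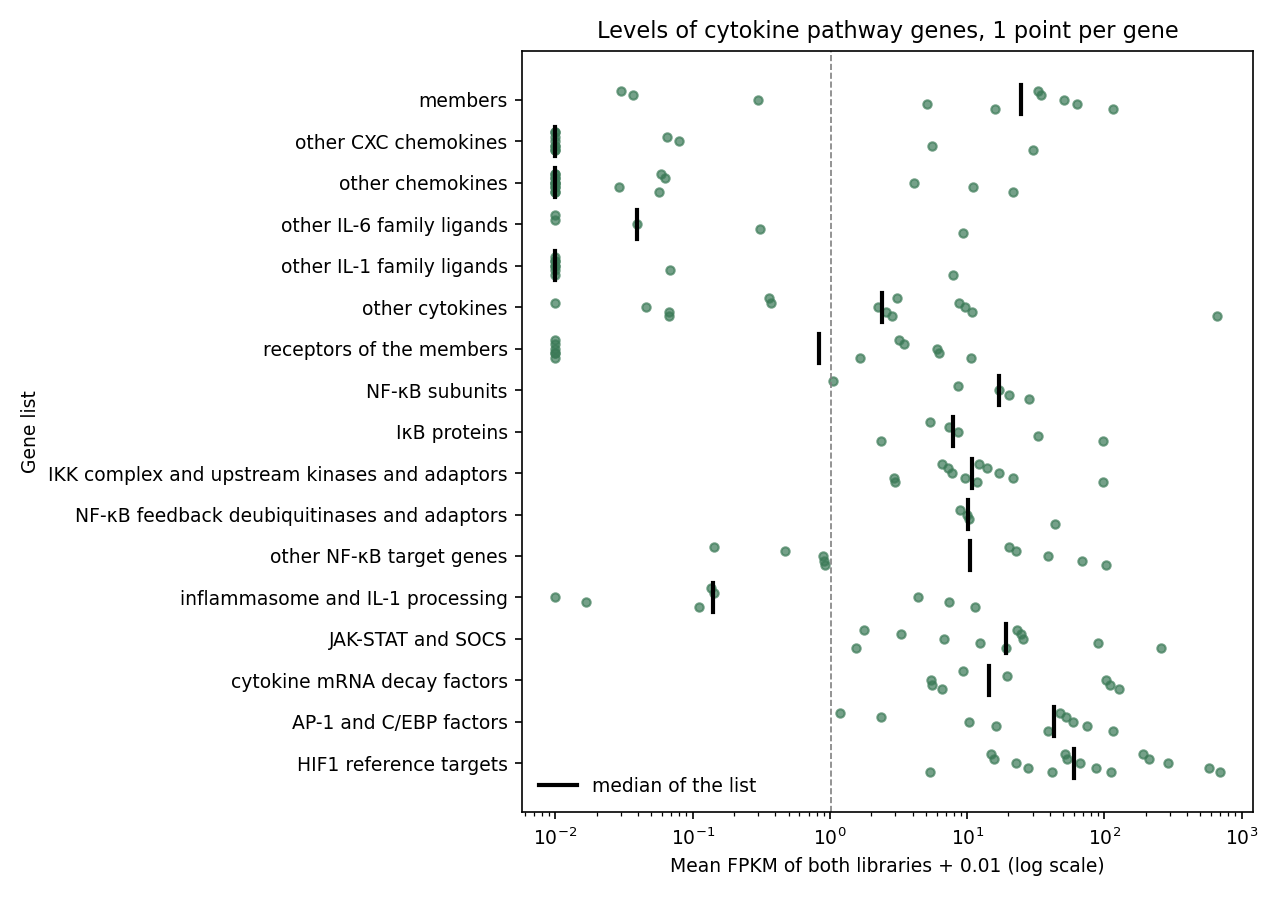
Mean FPKM of both libraries (log axis, with a small constant added so that 0 can be drawn) for each gene of the cytokine pathway lists, 1 point per gene, with the median of each list as a bar and an FPKM of 1 as a dashed line. The 10 genes described have a median of 24.5, while the other CXC chemokines and the other chemokines have medians of 0.

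The cells were checked against markers of tubule and of other cell types. Of 8 epithelial and renal lineage markers 6 reached a mean of 1, and their FPKM summed to 611 and 581, with *KRT19* most abundant at 184 and 177 and *PAX8* at 121 and 114. Of 10 proximal tubule markers 3 reached 1, with a sum of 137 and 134 and *CDH6* most abundant at 72.0 and 74.0. *GGT1* had 62.3 and 58.5 and *SLC5A2* 2.59 and 1.70, while *LRP2*, *SLC22A6* and *SLC22A8* were at 0 in both libraries. In the epithelial list, *CDH1* was low at 0.211 and 0.379 and *PAX2* at 0.287 and 0.359. Keratins and *PAX8* were thus present, while *CDH1* and *PAX2* were below 1. The proximal tubule markers were mixed, with *CDH6*, *GGT1* and *SLC5A2* above 1 and the others below 1 or not detected. Of 9 leukocyte markers 2 reached 1, with a sum over the list of 39.1 and 36.9. *CD68* made up 33.6 and 31.5 of it and *CSF1R* 4.58 and 4.56. *PTPRC*, *CD3E* and *MS4A1* were at 0. None of 5 endothelial markers reached 1, with a sum of 0.0254 and 0, *CDH5* highest at 0.0131 and 0, and *KDR*, *TEK* and *PECAM1* at 0 in both. Of 7 fibroblast and mesenchymal markers 2 reached 1, with a sum of 1334 and 842 that was mostly *VIM* (1294 and 802). *COL1A1* had 38.7 in both libraries, and *PDGFRA* was at 0.

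The ChIP-seq lists address where HIF1α was bound. They hold 1689 peaks in replicate 1 and 16953 in replicate 2 as positions on GRCh37, without height or score, so the depth behind a peak is unknown. None of the 10 genes had a peak within 1 kb of an annotated start site, in replicate 1 or in replicate 2, and none had a peak in its gene body. Among protein-coding genes 5.49% had such a promoter peak in replicate 1 and 14.0% in replicate 2. Among the 6160 with a mean FPKM of at least 10, as 6 of the 10 genes had, the shares were 10.5% and 27.9%. With 10 genes and such shares, a count of 0 is near the background and is not a result about these genes. Of 16 reference targets of HIF1 such as *LDHA* and *PGK1*, replicate 1 marked 14 at their promoters and replicate 2 marked 12, and these 12 were marked by both. At *PFKFB3*, *SLC2A1* and *VEGFA* among them, the nearest peaks of the replicates shared no base.

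Distance to the nearest peak differed among the members, in another order in each replicate. For replicate 1 the median distance over the 10 genes was 1488 kb, against 358 kb over protein-coding genes, and for replicate 2 it was 62.8 kb against 21.3 kb. *LIF* had the nearest replicate 1 peak at 6.50 kb, and 7.20% of protein-coding genes had a nearer one. *IL11* followed at 106 kb, and *IL1B* and *IL6* at 601 and 780 kb. For *CXCL8*, *CXCL1*, *CXCL2* and *CXCL3* the nearest replicate 1 peak was the same one, chr4:76598545-76598778 in *G3BP2*, at distances of 1992, 1863, 1634 and 1694 kb. The 4 chemokine genes therefore do not count separately in the replicate 1 median. In replicate 2 *CXCL2* was nearest at 12.6 kb, then *IL11* at 21.4, *NFKBIA* at 25.2 and *LIF* at 45.7 kb. For *LIF*, 63.1% of protein-coding genes had a nearer replicate 2 peak. *CXCL1*, *CXCL2* and *CXCL3* shared their nearest replicate 2 peak, so they do not count separately in the replicate 2 median either.

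**Figure D4:**
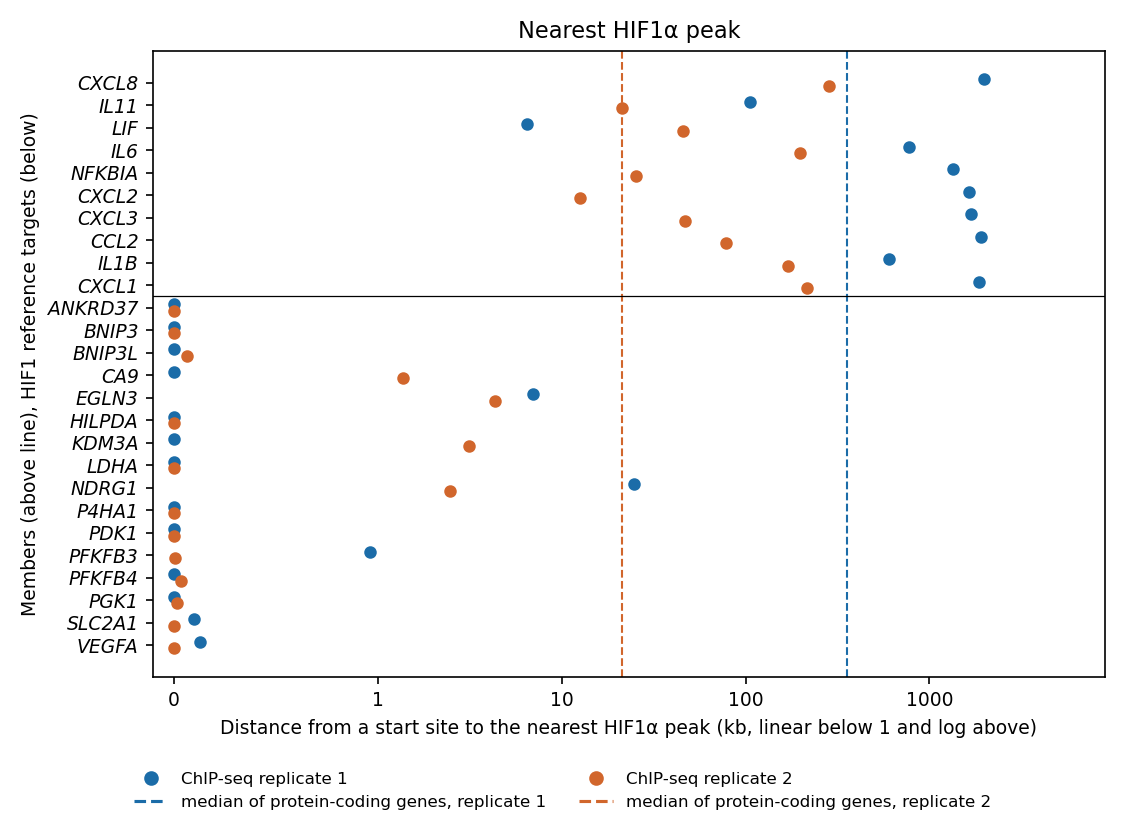
Distance in kb (linear below 1, log above) from a start site to the nearest HIF1α peak of ChIP-seq replicates 1 and 2, for the 10 genes above the line and 16 HIF1 reference targets below it. Dashed lines are medians over protein-coding genes, 358 kb in replicate 1 and 21.3 kb in replicate 2, and *LIF* is the gene above the line with a replicate 1 peak within 10 kb.

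With the window widened to 10 kb, 1 of the 10 genes, *LIF*, had a peak in replicate 1 and none had one in replicate 2, against 8.12% and 37.7% of protein-coding genes. Within 50 kb the counts were 1 and 5, against 16.8% and 64.8%. The *LIF* peak, chr22:30649246-30649500, lay upstream of the gene and outside every annotated gene, and shared no base with an exon. *LIF* was the gene with the nearest annotated start site. Replicate 2 had no peak there, and its nearest peak to *LIF*, chr22:30688448-30688693, lay 45.7 kb upstream and wholly in exon sequence at *TBC1D10A*. The *LIF* peak is shown as the nearest replicate 1 peak to any of the 10 genes, as the plus strand of GRCh37, with each hypoxia-responsive element core (ACGTG or GCGTG, either strand) in capitals.
LIF upstream peak: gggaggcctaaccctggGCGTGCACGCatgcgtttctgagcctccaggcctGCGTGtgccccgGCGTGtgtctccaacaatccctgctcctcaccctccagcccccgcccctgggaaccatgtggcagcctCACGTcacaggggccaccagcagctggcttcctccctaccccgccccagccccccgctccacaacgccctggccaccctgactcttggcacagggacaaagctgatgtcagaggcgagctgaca
The 255 bases held 5 cores, 2 of them adjacent on opposite strands, and the core nearest to the peak centre, ACGTG on the minus strand at 30649377 to 30649381, was 6 bp from it. Among windows of the same length around the centres of 1661 replicate 1 peaks, 87.6% held a core and the median number was 2. In replicate 2 the share was 32.0% of 16639 windows. The *LIF* peak held no κB, AP-1 or TATAAA match, and the shares of replicate 1 windows with these were 10.2% for the κB decamer, 0.783% for the palindrome, 14.6% for AP-1 and 4.03% for TATAAA.

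The replicate 2 peaks near the other genes lay on other annotated features. The peak between *CXCL3* and *CXCL2*, chr4:74951660-74952354, was 12.6 kb from the *CXCL2* start site and 47.1 kb from that of *CXCL3*. It covered most of a processed pseudogene (ENSG00000251017) that was listed at an FPKM of 0 in both libraries, shared 92.5% of its bases with that exon, and held no hypoxia-responsive element core. The peak nearest *NFKBIA*, chr14:35899199-35899488, lay 25.2 kb upstream at the edge of the processed pseudogene *DNAJC8P1*, and held 1 core. Near *IL11*, replicate 2 had 3 peaks 21.4 to 25.5 kb from its start sites, all in *KMT5C*. Of these, chr19:55858381-55859211 was wholly exonic and held 4 cores, chr19:55854909-55855147 was wholly exonic and held 0, and chr19:55856336-55856907 was 39.5% exonic and held 1. None of these peaks had a replicate 1 peak within 50 kb of the same start sites.

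**Figure D5:**
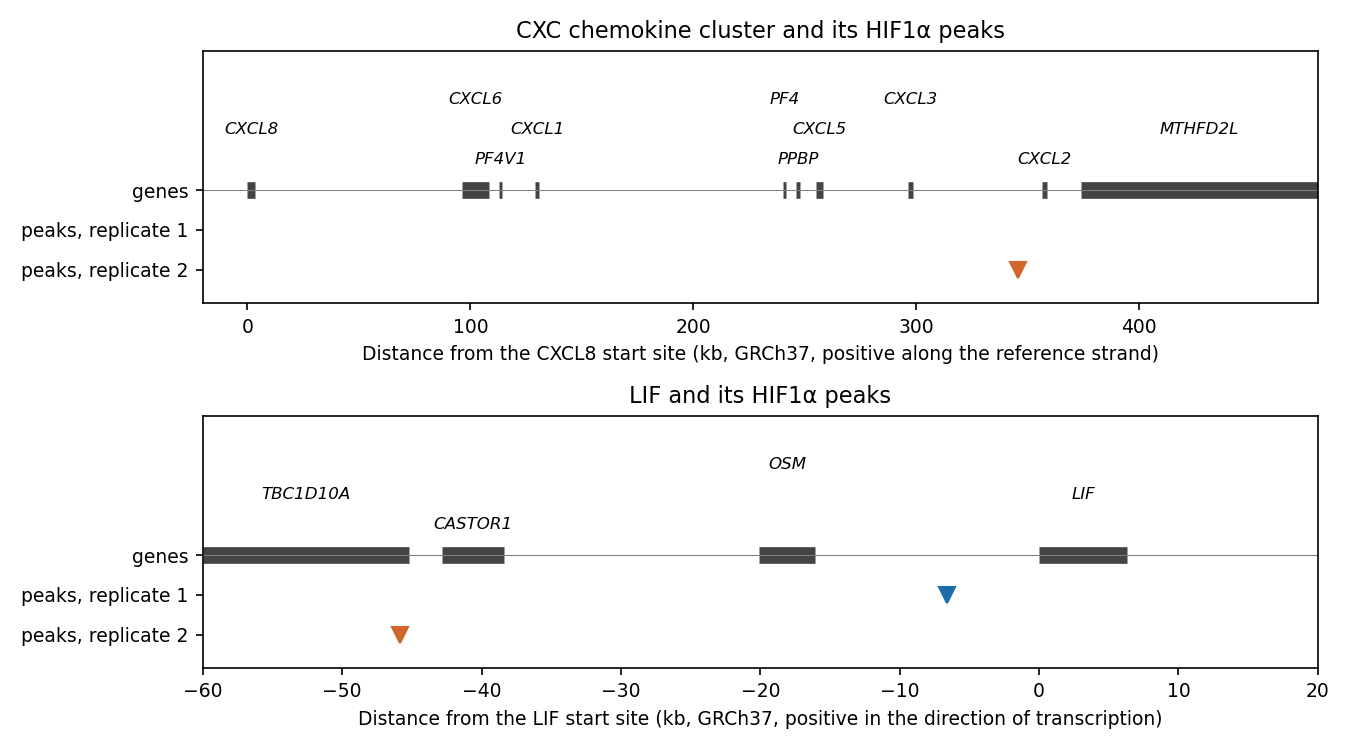
Protein-coding genes (bars) and HIF1α peaks (triangles, replicates 1 and 2 on separate lines) around the CXC chemokine cluster and *LIF*, with distance in kb from the *CXCL8* or *LIF* start site. The cluster holds 1 peak, of replicate 2, 12.6 kb from *CXCL2*, and *LIF* has the replicate 1 peak 6.50 kb upstream.

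Promoter peaks were present at other genes of the pathway. In replicate 1, where 5.49% of protein-coding genes had such a peak, they lay at *NFKB2* and *RELA* among the 5 subunits, at *TNFAIP3* and *TNIP1* among the 4 feedback genes, and at *ICAM1* among the 9 other targets that could be matched to peaks. They also lay at *JAK1* among 11 JAK-STAT genes, at *CCL28* among 18 other chemokines, and at *FOSL1*, *FOSL2*, *JUND* and *CEBPB* among the 10 AP-1 and C/EBP factors. No such peak lay at the 12 other CXC chemokines, 12 receptors, 5 other IL-6 family ligands or 9 other IL-1 family ligands. The 12 genes of the IKK list, 8 of the inflammasome list and 8 of the mRNA decay list also had none in replicate 1. Each of the 11 genes named with a peak had a hypoxia-responsive element core in its replicate 1 peak. There were 3 in the *RELA* and *NFKB2* peaks, 2 in the *TNFAIP3* peak and 1 in the *ICAM1* peak. A core was also in 87.6% of replicate 1 windows of 255 bases, a length that some of the 11 peaks exceeded. The *TNFAIP3* peak, chr6:138187976-138188212, and the *ICAM1* peak, chr19:10381172-10381408, each also held a κB decamer, as did that of *FOSL1* and 10.2% of those windows. None of the 6 IκB genes, *NFKBIA* included, had a promoter peak in either replicate, a count near the background for so few genes. In replicate 2 promoter peaks lay at *IL11RA*, *TAB1* and *TYK2*, at 6 of the 8 genes of the mRNA decay list (*KHSRP*, *HNRNPD*, *ZFP36L1*, *ZFP36L2*, *ZFP36* and *AUH*), and at *JUN*, *JUNB*, *JUND*, *CEBPB* and *CEBPD*. Such a peak was at 14.0% of protein-coding genes, and at 27.9% of those with a mean FPKM of at least 10. Replicate 2 also marked 6 of the 7 fibroblast and mesenchymal markers and 5 of the 8 epithelial ones, so such counts were not particular to the decay list. *MIF*, *JUND* and *CEBPB* had a promoter peak in both replicates, though at *JUND* the nearest peaks of the replicates shared no base. Of these replicate 2 peaks, the one at *IL11RA* shared no base with an exon, while those at *TAB1*, *TYK2*, *ZFP36*, *AUH*, *JUN*, *JUNB*, *JUND*, *CEBPB* and *CEBPD* lay wholly in exons.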

How the data were processed

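The authors mapped the RNA-seq reads with HISAT2 and estimated transcripts with StringTie 1.3.3 on GENCODE 27, per the file headers and the submitters' processing notes, and deposited coverage, FPKM and TPM for 200401 transcripts of 58288 genes. Read counts were not used here. Depth is known only as bases of coverage, 4442 Mb for the first RNA-seq library and 4202 Mb for the second. The ChIP-seq reads were trimmed with cutadapt and aligned to hg19 with Bowtie2, and the authors called peaks with MACS2 for each replicate and deposited positions only.

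FPKM was summed per gene. Genes were matched by Ensembl identifier, because the expression tables use GRCh38 coordinates and genes without coverage name the symbol in another field. *SOD2* and *PECAM1* had no shared identifier and entered levels only. Promoters were 1 kb on either side of each start site of GENCODE 44 lifted to GRCh37, with an overlap of at least 1 bp. Sequences came from RefSeq promoters (GRCh38.p14) and the GRCh37 genome, and motifs were sought on both strands. The κB decamer allowed a purine and pyrimidines at fixed places and overlaps the palindrome. Promoter identity came from global alignment.

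No test was possible, since all libraries had the same treatment, and replicate spread may be technical. The genes named from each pathway list were the 3 with the highest mean, those with a promoter peak and those at 0 in both libraries, and from each marker list the most abundant gene and those at 0. The reference targets of HIF1 were named as examples. A gene of the JAK-STAT list that this rule names is not reported here. *TNF*, *C3*, *TNFAIP2*, *G3BP2*, *STAT3*, *SOCS3*, *PAX8*, *PAX2*, *CDH1*, *COL1A1* and the remaining receptors were named after their values were seen. So were *REL*, *GGT1*, *SLC5A2*, *CSF1R*, *VCAM1*, *TRAF1*, *BIRC3*, *LCN2* and *PTGS2*. The 10 genes and the lists were chosen with earlier results of these data known. The code was tested on simulated data. Scripts ran in Python 3.11.15 with Biopython 1.88, numpy 2.4.6 and matplotlib 3.10.9.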

Additional observations from a re-analysis of the deposited data

How the results depend on the processing

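The count of genes whose mean FPKM was 1 or more was 7 with a minimum of 0.5 or 5, with TPM, with the largest transcript and without replicate 1 or replicate 2. The count of 0 promoter peaks was 0 in both replicates with a 3 kb window, with the 5' end of the gene, with protein-coding start sites, with peaks free of exon bases and with peak centres. It was 1 in replicate 1 with 10 kb and 50 kb windows, and 0 and 5 in replicate 2. The 50 kb window was chosen after seeing the data. The mean *NFKBIA* level of 33.1 was 14.6 with its largest transcript and 91.4 in TPM, which is another scale, and ran from 32.4 to 33.7 without replicate 1 or replicate 2. The log2 ratio of replicate 2 to replicate 1 changed sign for *CXCL3* and *NFKBIA* with the largest transcript, where both ratios were near 0. With the largest transcript, the means of *CXCL2*, *CXCL3*, *CCL2*, *IL6*, *IL11* and *LIF* also moved by more than the spread, and those of *CXCL1*, *CXCL8* and *IL1B* by less. The log2 ratios of *CXCL1* and *IL1B* moved by more than the spread with a pseudocount of 0.1. With 2 libraries, leaving out either moves a mean by a fixed part of its SD, so those means are no test of stability. No paired analysis was possible because all libraries had the same treatment. With 2 libraries an SD is imprecise, and levels near 0 rest on few bases of coverage.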
